A study of Mus musculus with 6 samples.

Results

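The S100 genes of 3 mouse melanoma lines were described from the deposited RNA sequencing table. The genes were taken by symbol, and 9 of the 23951 genes of the table met the rule: S100a1, S100a3, S100a4, S100a6, S100a10, S100a11, S100a13, S100a16 and S100b. Of these, 8 reached 1 FPKM (fragments per kilobase of transcript per 1000000 mapped fragments) in at least 2 libraries and were tested, and S100a3 was not. B16-F1 is a poorly metastatic mouse melanoma line and was bought from a cell bank, ATCC. B16-F1R2 was established from a metastasis in a lymph node, and B16-F1R2L from a lung metastasis that itself descended from a lymph node metastasis, and both came from one laboratory at ETH Zurich. All were untreated cells grown in the same medium, each with 2 libraries. In both comparisons with B16-F1 the source of the cells differed together with the line, so source and line cannot be told apart there. Nothing in the labels tells if a line's libraries are separate cultures. The p-values therefore measure only the spread between these libraries, which may be technical.

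S100 proteins are small calcium sensors. Most form dimers, bind calcium through a pair of EF-hand loops and then expose a surface that holds a partner protein, such as an annexin, a myosin heavy chain or a receptor fragment. They have no enzyme activity of their own, and some are also released from cells and act on surface receptors. In melanoma the family is known mainly through S100b, which is used as a tissue and serum marker, while S100a4 has been called metastasin for its association with metastasis. Most of the genes sit side by side in one cluster, which in the mouse is on chromosome 3, and S100b lies apart on chromosome 10.

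The S100 genes changed unequally between the lines. S100a4, S100a6 and S100a16 were low in B16-F1 and 11.3-fold to 25.5-fold higher in B16-F1R2 on the fitted scale. S100a1 was 2.45-fold lower, and the remaining tested genes differed by less than 1.5-fold in that comparison. Lines were compared on log2(FPKM + 0.1) with limma, which fits a linear model to each gene and moderates its variance over 11379 genes and all 6 libraries, and p-values adjusted by Benjamini-Hochberg and read against 0.05. Because of the added 0.1, fold changes of genes at low levels come out too small. Of the 8 tested genes, 4 were called higher in B16-F1R2, B16-F1 being the reference, where 28.2% of all tested genes were, and 3 were called lower, where 27.2% were. When the log2 fold change also had to reach 1, 3 were higher against 7.2% of all tested genes, and 1 was lower against 2.88%. In B16-F1R2L compared with B16-F1, 5 were higher against a background of 29.5% and 3 were lower against 27.1%. With the same minimum fold, 3 were higher against 8.41% and 1 was lower against 2.28%. These 2 comparisons share the B16-F1 libraries. S100a16 reached 1 FPKM in only 1 B16-F1 library and so passed the filter through the metastatic lines, which bears on the number of tested genes that were higher.

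**Figure D1:**
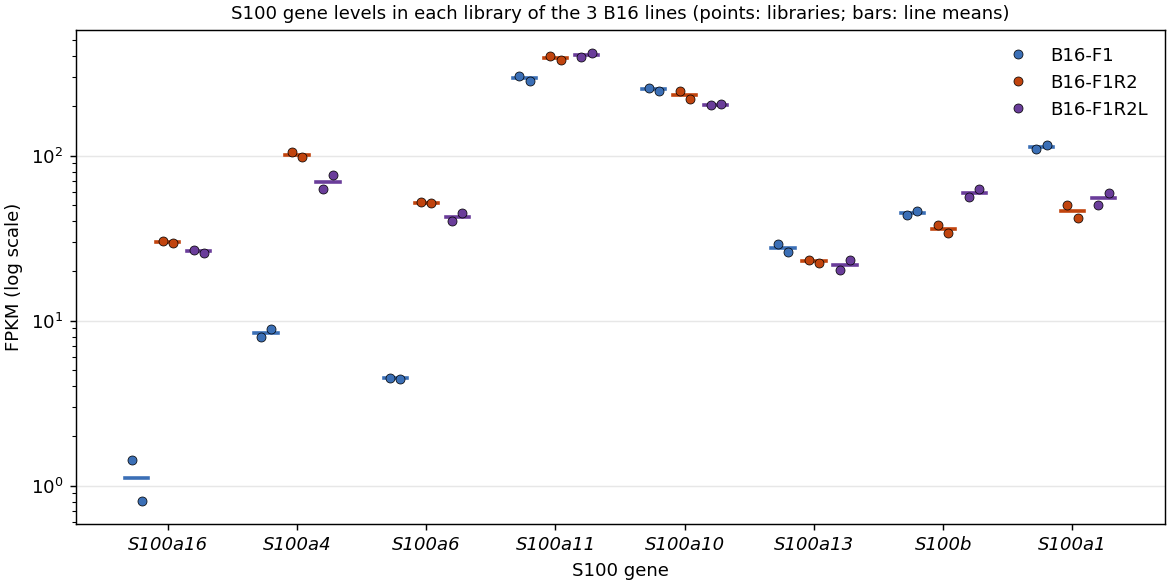
FPKM of the 8 tested S100 genes (horizontal axis) on a log scale (vertical axis), with a point for each of the 2 libraries of each line and a bar for the line's mean. S100a16, S100a4 and S100a6 lie far lower in B16-F1 than in the other lines, S100a1 lies higher, and S100a11 and S100a10 are high in all 6 libraries.

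S100a4 encodes metastasin, which binds the heavy chain of non-muscle myosin. It had 7.97 and 8.89 FPKM (B16-F1), 105 and 97.4 FPKM (B16-F1R2) and 62.9 and 76.3 FPKM (B16-F1R2L). All libraries of the metastatic lines were above both B16-F1 libraries, and the 3 lines did not overlap. The means were 8.43 ± 0.65, 101 ± 5.32 and 69.6 ± 9.52 FPKM (SD, n = 2). The log2 fold change was 3.57 (SE 0.10) in B16-F1R2 against B16-F1 (limma, adjusted p = 2.4e-06) and 3.03 (SE 0.10) in B16-F1R2L against B16-F1 (adjusted p = 4e-06). Ranked by FPKM among all 23951 genes, S100a4 moved from places 7187 and 6877 in the B16-F1 libraries to places 959 and 1000 in B16-F1R2.

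S100a6 encodes calcyclin, the partner of the calcyclin binding protein Cacybp. Its values were 4.51 and 4.42 FPKM (B16-F1), 52.0 and 51.4 FPKM (B16-F1R2) and 40.4 and 44.6 FPKM (B16-F1R2L). The order of the lines was the same as for S100a4, with B16-F1 lowest and B16-F1R2 highest and no overlap. The log2 fold changes were 3.50 (SE 0.06) in B16-F1R2 against B16-F1 (limma, adjusted p = 3.7e-07) and 3.22 (SE 0.06) in B16-F1R2L against B16-F1 (adjusted p = 4.9e-07). Of the 8 tested S100 genes it had the lowest adjusted p in both comparisons.

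S100a16, a broadly expressed member of the family, had the largest difference of the tested S100 genes. It had 1.44 and 0.804 FPKM (B16-F1), 30.5 and 29.4 FPKM (B16-F1R2) and 26.8 and 25.8 FPKM (B16-F1R2L). The metastatic lines lay close to each other and far above B16-F1. The log2 fold change was 4.67 (SE 0.22) in B16-F1R2 (limma, adjusted p = 1.6e-05) and 4.49 (SE 0.22) in B16-F1R2L (adjusted p = 1.8e-05), both against B16-F1. The B16-F1 values rest on few reads, estimated at 18.7 and 10.1, against 361 to 424 in the other libraries, so the size of this change is less certain than that of S100a4 or S100a6. It ranged from 3.88 to 5.05 in B16-F1R2 against B16-F1 over 17 alternative settings. By the size of the rise in that comparison, S100a16 was in place 128, S100a4 in place 243 and S100a6 in place 253 of 11379 genes.

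**Figure D2:**
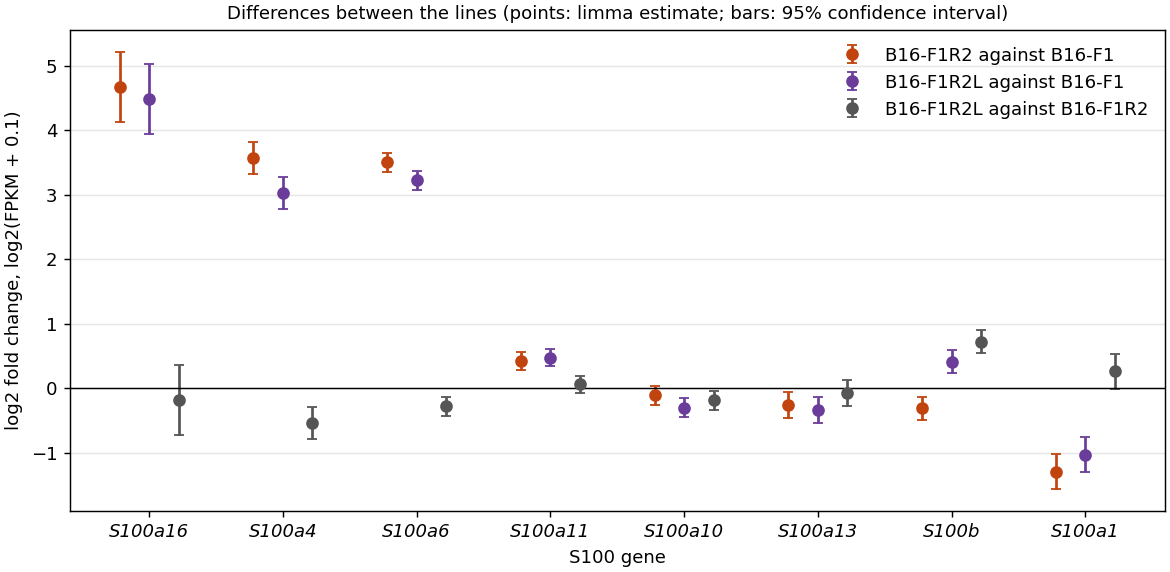
Log2 fold changes on the scale log2(FPKM + 0.1) (vertical axis) of the 8 tested S100 genes (horizontal axis) in the 3 comparisons of lines, with points for the limma estimates and bars for their 95% confidence intervals. The intervals of S100a16, S100a4 and S100a6 start at 2.778 or higher in both comparisons with B16-F1, those of S100a1 end at -0.766 or lower, and B16-F1R2L against B16-F1R2 gives differences from -0.54 for S100a4 to 0.72 for S100b, which for S100b is the largest of its 3 comparisons.

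The stretches before the starts of these 3 genes are shown because the genes lie near each other and were higher in the same lines. They are the 250 bases upstream of a start in the RefSeq promoter table (build GRCm38.p6), placed on NCBIM37, the mm9 assembly of the study, by exact match, and all 3 end at the base before the annotated start. RefSeq gave a window for 8 of the 9 S100 genes, and for S100a16 it gave 2, of which the one at the annotated start is shown. The windows are chr3:90407442-90407691 for S100a4, chr3:90416566-90416815 for S100a6 and chr3:90340926-90341175 for S100a16, all on the plus strand. Capitals mark the only motif match in them.
S100a4: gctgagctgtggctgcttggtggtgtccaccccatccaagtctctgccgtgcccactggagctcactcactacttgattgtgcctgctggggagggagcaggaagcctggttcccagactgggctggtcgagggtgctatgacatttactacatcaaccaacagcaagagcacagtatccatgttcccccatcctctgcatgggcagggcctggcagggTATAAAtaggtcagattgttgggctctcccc
S100a6: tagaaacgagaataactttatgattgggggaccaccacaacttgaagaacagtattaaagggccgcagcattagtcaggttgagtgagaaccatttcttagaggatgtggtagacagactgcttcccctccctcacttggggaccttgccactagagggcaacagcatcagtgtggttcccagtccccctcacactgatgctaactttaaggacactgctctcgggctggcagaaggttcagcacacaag
S100a16: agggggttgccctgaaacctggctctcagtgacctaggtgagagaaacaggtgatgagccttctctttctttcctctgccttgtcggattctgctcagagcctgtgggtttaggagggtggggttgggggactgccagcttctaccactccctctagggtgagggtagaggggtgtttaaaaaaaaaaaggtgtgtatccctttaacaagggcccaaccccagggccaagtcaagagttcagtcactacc
The motifs searched on both strands were TATAAA for the general transcription machinery, GGGCGG for Sp1 proteins, TGANTCA for Fos and Jun proteins, CACGTG for Myc proteins, and CATGTG for Mitf proteins. The only match overlapped no other. S100a4 had a TATAAA that began 31 bases before the start, and 12.4% of 32851 RefSeq windows of the same length hold one. S100a6 and S100a16 had none of the 5 motifs in these windows. The other window of S100a16, whose start lies 3892 bases downstream, held the motif named for Mitf, that for Fos and Jun and that for Sp1, beginning 240, 192 and 30 bases before that start, and 3 CpG. These motifs occur in 12.3%, 6.75% and 32.7% of all windows. Which start the cells use was not measured. The printed windows held 2, 3 and 1 CpG in the order printed, where the median over all windows was 6 (quartiles 2 and 16). No methylation or binding was measured, and a match is a description of the letters.

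S100a1, best known in heart and skeletal muscle, where it acts on calcium release, had the largest fall of the tested S100 genes. It had 109 and 116 FPKM (B16-F1), 50.3 and 41.6 FPKM (B16-F1R2) and 50.3 and 59.6 FPKM (B16-F1R2L). Both B16-F1 libraries were above all others. The log2 fold change was -1.29 (SE 0.11) in B16-F1R2 (limma, adjusted p = 0.00017) and -1.04 (SE 0.11) in B16-F1R2L (adjusted p = 0.00045), each against B16-F1. S100a13, which takes part in the release of the growth factor Fgf1 from cells, starts next to S100a1 and is read in the opposite direction. Its values were 29.0 and 26.1 FPKM (B16-F1), 23.3 and 22.5 FPKM (B16-F1R2) and 20.3 and 23.4 FPKM (B16-F1R2L). B16-F1 was again above the other lines, by much less than for S100a1. The log2 fold changes were -0.26 (SE 0.08, limma, adjusted p = 0.035) in B16-F1R2 and -0.33 (SE 0.08, adjusted p = 0.015) in B16-F1R2L against B16-F1. These calls were not firm. The first was lost without B16-F1 replicate 1 (adjusted p = 0.18), B16-F1R2 replicate 1 (0.091) or B16-F1R2 replicate 2 (0.14), within a range of 0.013 to 0.18 over the 17 alternatives. The second was lost without B16-F1 replicate 1 (0.089) or B16-F1R2L replicate 1 (0.058), within a range of 0.01 to 0.1.

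The annotated starts of S100a1 and S100a13 are 43 bases apart. The 42 bases between them, at chr3:90318315-90318356 of NCBIM37 on the plus strand (the S100a13 side is at the right), are shown because the annotated starts of the pair flank this stretch and the genes did not change alike. The RefSeq table puts the start of S100a1 62 bases further into the gene, so by that start the stretch is part of a longer gap, while the start of S100a13 is the same in both. The 95% confidence intervals of the log2 fold change in B16-F1R2 against B16-F1 were -1.56 to -1.025 for S100a1 and -0.47 to -0.06 for S100a13.
S100a1 to S100a13: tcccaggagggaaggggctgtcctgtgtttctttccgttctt
The stretch held 1 CpG. No exon of another annotated gene overlapped an exon of any of the 9 S100 genes.

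S100a11 and S100a10, the partners of annexin A1 and annexin A2, were the most abundant S100 transcripts per length in each line. S100a11 had 303 and 284 FPKM (B16-F1), 400.2 and 382 FPKM (B16-F1R2) and 393 and 419.9 FPKM (B16-F1R2L). Both metastatic lines were above B16-F1 and overlapped each other. The log2 fold changes against B16-F1 were 0.41 (SE 0.06, limma, adjusted p = 0.0012) in B16-F1R2 and 0.47 (SE 0.06, adjusted p = 0.0007) in B16-F1R2L. The S100a11 level is uncertain, since 66.2% of the 462 stretches of 50 bases in its transcript also occurred exactly elsewhere in the genome, and 96.5% did with up to 2 mismatches, at 6 places. Of these, 4 overlap the annotated genes Gm5068, Gm7665, Gm13640 or Gm12854, none of which is in the table, and the other 2 overlap no annotated gene. The place in Gm12854 also lies in Uqcrh, a subunit gene of the respiratory chain with up to 459 FPKM. It covers 0 bases of the annotated exons of Uqcrh. The authors let a read align to up to 20 positions. Of the other 8 S100 genes, none had such a stretch.

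S100a10 had 256 and 247 FPKM (B16-F1), 245 and 220 FPKM (B16-F1R2) and 203 and 204 FPKM (B16-F1R2L). The lines did not overlap, but the 245 of B16-F1R2 replicate 1 lay next to the lower B16-F1 value. The log2 fold change of -0.11 (SE 0.06, 95% confidence interval -0.26 to 0.03) in B16-F1R2 against B16-F1 did not pass the limma test (adjusted p = 0.15). It passed with the gene length trend removed (-0.22, limma, adjusted p = 0.0032). Without B16-F1R2 replicate 1 it was -0.19, and over the 17 alternatives the log2 fold change ranged from -0.22 to -0.036. That in B16-F1R2L against B16-F1, -0.30 (SE 0.06), passed it (adjusted p = 0.0054), but not after quantile normalization (-0.11, adjusted p = 0.081, with 0.00097 to 0.081 over the alternatives).

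S100b, the member used as a melanoma marker, was the only tested S100 gene whose difference from B16-F1 had opposite signs in B16-F1R2 and B16-F1R2L. It had 43.5 and 46.0 FPKM (B16-F1), 37.9 and 34.1 FPKM (B16-F1R2) and 56.4 and 62.6 FPKM (B16-F1R2L). B16-F1R2 was lowest, B16-F1R2L highest, and no lines overlapped. The log2 fold change was -0.31 (SE 0.07, limma, adjusted p = 0.012) in B16-F1R2 and 0.41 (SE 0.07, adjusted p = 0.0043) in B16-F1R2L, each against B16-F1. The first call was lost without B16-F1 replicate 2 (adjusted p = 0.077) or B16-F1R2 replicate 2 (0.068), within a range of 0.0049 to 0.096 over the 17 alternatives. The difference between the metastatic lines was larger, 0.72 (SE 0.07, limma, adjusted p = 0.004), a 1.65-fold higher level in B16-F1R2L. Without the filter on low values, the adjusted p of S100b rose to 0.096, 0.052 and 0.057 in these 3 comparisons.

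S100a3, known from hair cuticle, was listed at 0 in both B16-F1 libraries and in B16-F1R2 replicate 2, and had 0.154 FPKM in B16-F1R2 replicate 1 and 0.467 and 0.274 in B16-F1R2L. These values correspond to an estimated 1.1, 3.5 and 2.2 reads, and no fold change is given. It lies between S100a16 and S100a4 on the chromosome. A further 8 S100 genes of the table stayed below 1 FPKM in all libraries, with a highest value of 0.535, and 5 of them were listed at 0 throughout.

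B16-F1R2L compared with B16-F1R2 asks how the line from the lung differed from the line from the lymph node. Of the 8 tested S100 genes, 1 was higher (S100b), where 12.1% of all tested genes were, and 2 were lower (S100a4 and S100a6), where 10.5% were. S100a4 differed by -0.54 (SE 0.10, limma, adjusted p = 0.017), a 1.46-fold lower level in B16-F1R2L. The call was lost without B16-F1R2 replicate 1 (adjusted p = 0.097) or B16-F1R2 replicate 2 (0.054), within a range of 0.014 to 0.15 over the 17 alternatives. S100a6 differed by -0.28 (SE 0.06, adjusted p = 0.024). Its call was lost when any library other than B16-F1R2L replicate 2 was left out (adjusted p from 0.05, just above the threshold before rounding, to 0.11), and it passed in 8 of the 17 alternatives, which ranged from 0.019 to 0.15. Both genes stayed far above their B16-F1 levels in B16-F1R2L. For S100a16 the difference was -0.19 with a 95% confidence interval of -0.72 to 0.35, and for S100a1 it was 0.26 with an interval of -0.01 to 0.53. S100a10 was at -0.19 (adjusted p = 0.064, and 0.04 without B16-F1R2 replicate 2, with 0.04 to 0.39 over the alternatives). S100a11 and S100a13 overlapped between these lines.

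The make-up of the S100 transcripts differed more than their sum. The FPKM of the 9 genes added up to 754 and 733 (B16-F1), 945 and 878 (B16-F1R2) and 854 and 917 (B16-F1R2L). S100a4, S100a6 and S100a16 together made up 1.85% and 1.93% of this sum in the B16-F1 libraries, 19.8% and 20.3% in those of B16-F1R2 and 15.2% and 16.01% in those of B16-F1R2L. S100a10 and S100a11 together held 72.4% to 74.1% in B16-F1 and 68.1% to 69.8% in the other lines. The sum, and so each share, includes S100a11, whose level is uncertain because of its shared sequence. S100a1 fell in share from 14.5% and 15.8% to 5.32% and 4.74% in B16-F1R2. In level per length the mean FPKM of B16-F1 ran S100a11 (293), S100a10 (251), S100a1 (112), S100b (44.8), S100a13 (27.5), S100a4 (8.43), S100a6 (4.46) and S100a16 (1.12). In B16-F1R2, S100a4 (101) took the place after S100a10 (233), followed by S100a6 (51.7), S100a1 (45.9), S100b (36.0), S100a16 (29.9) and S100a13 (22.9). S100a6 and S100a1 differed there by less than the SD of S100a1 (6.15). In B16-F1R2L the libraries of S100b and S100a1 overlapped. Transcripts are short for most of these genes, at 498 to 1484 bases for the longest one annotated. The shortest were S100a4 and S100a11, whose levels depend most on how the length of a transcript was corrected in the FPKM.

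**Figure D3:**
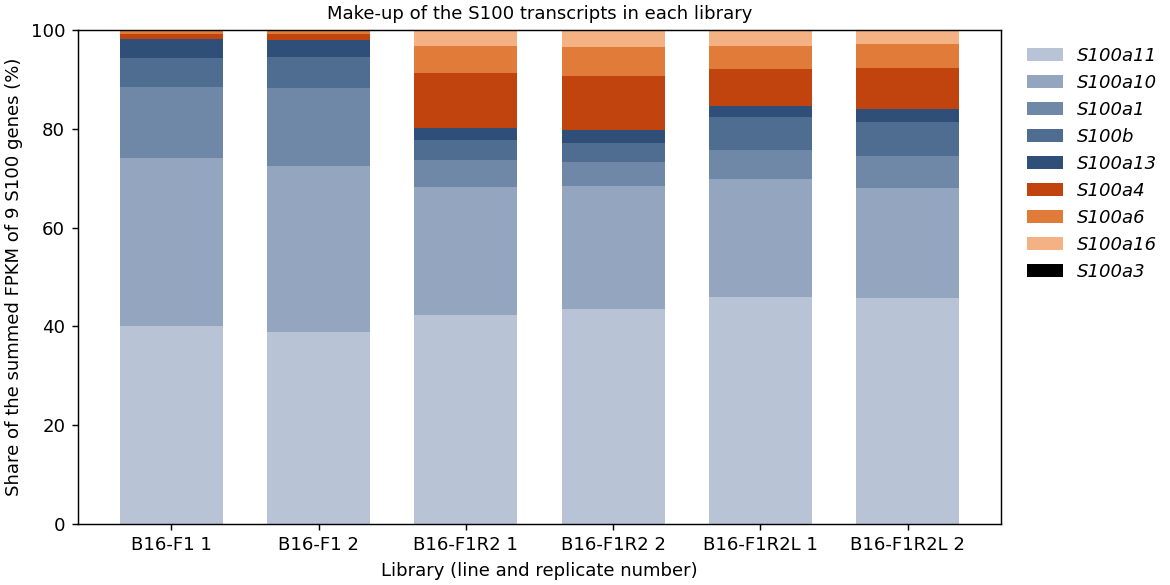
Share of each of the 9 S100 genes in their summed FPKM (vertical axis, percent) in each of the 6 libraries (horizontal axis), as stacked parts. S100a4, S100a6 and S100a16 together grow from under 2% in B16-F1 to about 20% in B16-F1R2 and 15.2% to 16.01% in B16-F1R2L, while S100a11 and S100a10 hold most of the sum in all libraries.

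On chromosome 3, the 3 S100 genes with the largest rise are near each other, the fourth gene that was higher, S100a11, lies far from them, and their neighbours were not alike. From low to high coordinate (NCBIM37), S100a1 (90314956 to 90318314, minus strand) is followed by S100a13 (90318357 to 90328503), S100a16 (90341176 to 90347073), S100a3 (90404137 to 90406624), S100a4 (90407692 to 90409967) and S100a6 (90416816 to 90418336), all on the plus strand. The start of S100a16 and the end of S100a6 are 77.2 kb apart. S100a11 (93324410 to 93330209) and S100a10 (93359002 to 93368565) lie 2906 kb further on, and S100b is on chromosome 10 (75716598 to 75723904). Of the 59 other genes of the table between S100a1 and S100a10, none passed the filter and 56 were listed at 0 in all libraries. S100a1 and S100a13, at the low end, were lower in B16-F1R2, and S100a16, S100a4 and S100a6, which follow them, were higher.

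Among the 5 tested genes on each side of the S100 genes, limma called 5 higher and 3 lower in the line B16-F1R2 against B16-F1, against a background of 28.2% and 27.2%. Their median log2 fold change was 0.26, where the median of all tested genes was 0.0046. Of these, 1 had a difference of the size seen for S100a4. This gene, Npr1, the receptor for atrial natriuretic peptide, has its lower coordinate 60.4 kb below that of S100a1. It had 0.204 and 0.0947 FPKM (B16-F1), 3.03 and 2.92 FPKM (B16-F1R2) and 4.05 and 3.63 FPKM (B16-F1R2L). Its log2 fold change was 3.66 (SE 0.23, limma, adjusted p = 5e-05) in B16-F1R2 against B16-F1, and like S100a16 it passed the filter through the metastatic lines. The other 9 neighbours differed by -0.39 to 0.90, and 3 of them, Ilf2, Snapin and Chtop, lie between Npr1 and S100a1. Oaz3, on the high side and called higher, had 1.26 and 0.851 FPKM in B16-F1 and also passed the filter through the metastatic lines.

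**Figure D4:**
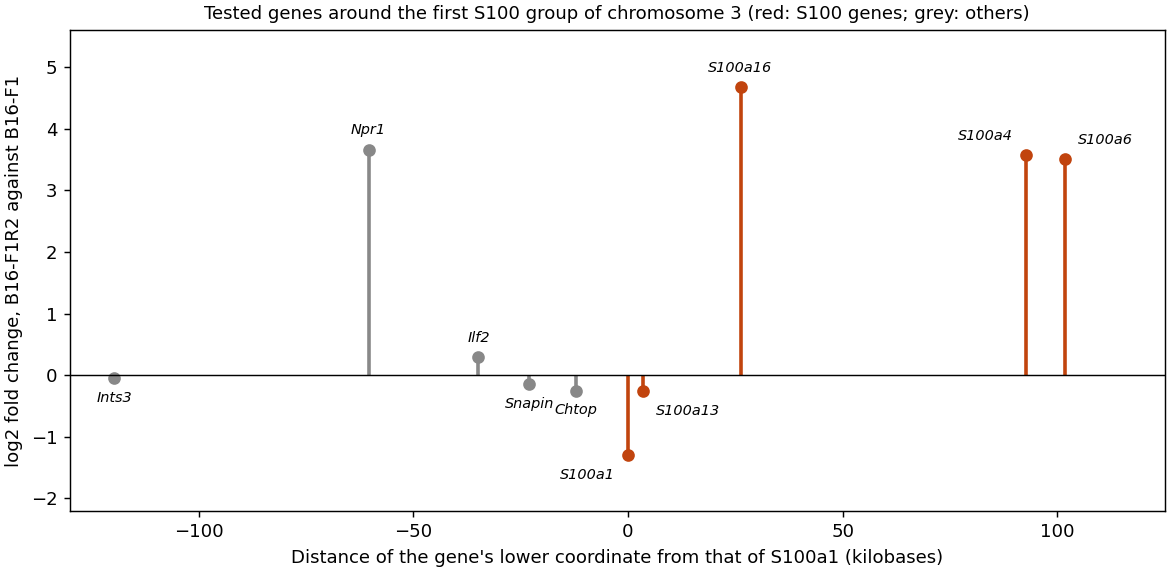
Log2 fold change in B16-F1R2 against B16-F1 (vertical axis) of the tested genes around the first S100 group of chromosome 3, by the distance of their lower coordinate from that of S100a1 (horizontal axis, kilobases), with S100 genes in red and other genes in grey. S100a16, S100a4 and S100a6 stand at 3.50 to 4.67, Npr1 on the other side at 3.66, and the genes between Npr1 and S100a16 from -1.29 to 0.29.

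The genes of S100 partner proteins were called in both directions. The background in B16-F1R2 against B16-F1 was 28.2% called higher and 27.2% called lower, with a median of 0.0046. Of 12 annexins, 8 were tested, and in B16-F1R2 against B16-F1 5 were higher and 1 lower by limma, with a median log2 fold change of 0.18. Anxa2, the membrane binding partner of S100a10, had 344 and 341 FPKM (B16-F1), 332 and 314 FPKM (B16-F1R2) and 308 and 309 FPKM (B16-F1R2L), and its log2 fold change was -0.09 (SE 0.04, adjusted p = 0.14) in B16-F1R2 and -0.15 (SE 0.04, adjusted p = 0.025) in B16-F1R2L. Between B16-F1R2L and B16-F1R2 it differed by -0.07 (SE 0.04, adjusted p = 0.31). For both S100a10 and Anxa2, limma called B16-F1R2L lower than B16-F1 and did not call the other 2 comparisons. In B16-F1R2L against B16-F1, 27.1% of all tested genes were called lower. Another annexin, Anxa5, had the same calls as these 2 genes, with -0.14 (limma, adjusted p = 0.028) in B16-F1R2L against B16-F1. Anxa1, the partner of S100a11, had 116 and 110.2 FPKM (B16-F1), 141 and 133 FPKM (B16-F1R2) and 136 and 141 FPKM (B16-F1R2L). It was higher by 0.28 (SE 0.05, adjusted p = 0.004) in B16-F1R2. The largest differences among the called annexins were 0.54 for Anxa9, -0.41 for Anxa4 and 0.41 for Anxa7, with adjusted p of 0.0041, 0.0017 and 0.00072.

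Of 28 genes of other S100 partners, 21 were tested. Most of the partners act inside cells, while Plat, Plg and Fgf1 encode secreted proteins. In B16-F1R2 against B16-F1, 7 rose and 7 fell, where 28.2% and 27.2% of all tested genes did, and 7 were not called. The median was -0.11. Myh9, the myosin heavy chain bound by S100a4, had 91.2 and 92.8 FPKM (B16-F1) and 91.4 and 93.6 FPKM (B16-F1R2), a log2 fold change of 0.01 (SE 0.06, limma, adjusted p = 0.93). Its 100.35 and 88.2 FPKM in B16-F1R2L lay on both sides of these values. Cacybp, the partner of S100a6, was higher, with 71.7 and 67.0 FPKM (B16-F1) and 101 and 96.9 FPKM (B16-F1R2), a difference of 0.51 (SE 0.05, limma, adjusted p = 0.00034). In B16-F1R2L it had 81.2 and 77.6 FPKM, between the other lines. Ahnak, a giant scaffold protein that binds S100a10 with Anxa2, had 2.24 and 3.25 FPKM (B16-F1), 6.03 and 7.25 FPKM (B16-F1R2) and 8.38 and 8.17 FPKM (B16-F1R2L), a log2 fold change of 1.26 (SE 0.18, adjusted p = 0.0014) in B16-F1R2.

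Gfap, an intermediate filament protein of astrocytes whose assembly S100b affects, had the largest rise among the partners. It had 0.559 and 0.757 FPKM (B16-F1), 18.8 and 17.5 FPKM (B16-F1R2) and 25.5 and 25.4 FPKM (B16-F1R2L), and was 4.60 (SE 0.13) higher in B16-F1R2 (limma, adjusted p = 2.2e-06). It passed the filter through the metastatic lines. Aldoc, a glycolytic aldolase, was lower by -1.53 (SE 0.14, adjusted p = 0.00023), with 15.4 and 16.3 FPKM (B16-F1), 6.35 and 4.62 FPKM (B16-F1R2) and 10.7 and 11.2 FPKM (B16-F1R2L). Fgf1, the growth factor released with S100a13, was also lower, at 2.22 and 2.28 FPKM (B16-F1), 0.799 and 0.846 FPKM (B16-F1R2) and 0.812 and 1.15 FPKM (B16-F1R2L). Its log2 fold change was -1.35 (SE 0.20, adjusted p = 0.0016) in B16-F1R2. It passed the filter through B16-F1, where it is high.

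Of 9 receptors on which released S100 proteins are described to act, 4 were tested. In B16-F1R2 against B16-F1, limma called none higher and 2 lower, where 28.2% and 27.2% of all tested genes were. The median was -0.18. Tlr4, the endotoxin receptor, had 9.16 and 10.3 FPKM (B16-F1), 5.86 and 5.77 FPKM (B16-F1R2) and 6.72 and 7.28 FPKM (B16-F1R2L), a log2 fold change of -0.73 (SE 0.08, adjusted p = 0.00062) in B16-F1R2. Alcam, a cell adhesion molecule, differed by -0.36 (SE 0.10, adjusted p = 0.024). Ager, the receptor for advanced glycation end products, was not tested, since it stayed between 0.503 and 0.888 FPKM. It was named after its values were seen.

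Other genes with EF-hands served to set the S100 genes beside calcium binding proteins of other families. Of 31, 23 were tested, and 5 rose and 10 fell in B16-F1R2 against B16-F1, where 28.2% and 27.2% of all tested genes did, with a median of -0.09. Rcn3, a calcium binding protein of the secretory pathway, had 0.662 and 0.622 FPKM (B16-F1), 25.9 and 26.5 FPKM (B16-F1R2) and 31.0 and 28.4 FPKM (B16-F1R2L), and was higher by 5.15 (SE 0.07, limma, adjusted p = 2e-07) in B16-F1R2. Gca, or grancalcin, was higher by 2.14 (SE 0.10, adjusted p = 1.3e-05) and Efhd1, a mitochondrial protein, by 1.30 (SE 0.20, adjusted p = 0.0021). Hpcal1, a neuronal calcium sensor, was lower, at -1.46 (SE 0.15, adjusted p = 0.00035). Rcn3 and Efhd1 were below 1 FPKM in both B16-F1 libraries.

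**Figure D5:**
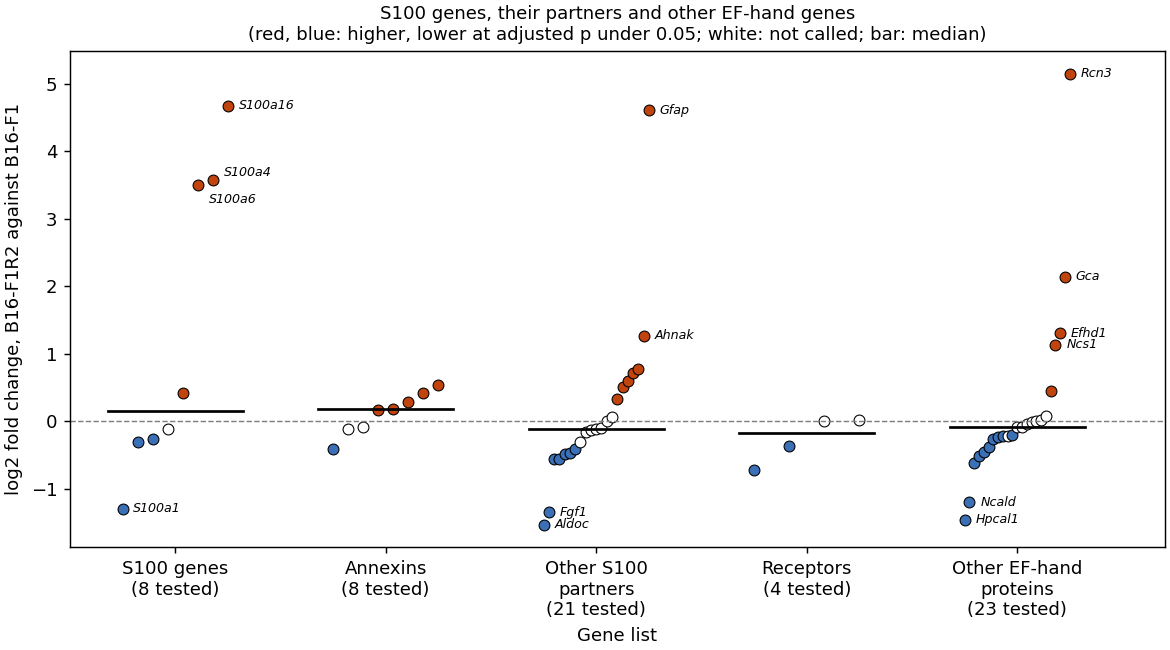
Log2 fold change in B16-F1R2 against B16-F1 (vertical axis) of each tested S100 gene and of the tested genes of 4 lists of related genes (horizontal axis), coloured by whether the gene was higher, lower or not called by limma, with a bar at each median. The medians lie between -0.18 and 0.18, and S100a16, S100a4, S100a6, Gfap, Rcn3 and Gca stand above 2.

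The genes most like the S100 genes with the widest range were sought over the 6 libraries by Euclidean distance between centred log2(FPKM + 0.1) profiles, as a description. For S100a16 these were Prss57 (distance 0.42), Pde1b (0.46) and Il34 (0.54), each of which had at most 0.12 FPKM in B16-F1 and between 1.94 and 5.08 in the other libraries. For S100a4 they were 5730559C18Rik (0.29), S100a6 (0.32) and Draxin (0.42). Apart from S100a6, these genes passed the filter through the metastatic lines and had at most 0.12 FPKM in B16-F1, near or below the added 0.1, so that value bears on their distances and on the order. S100a16 was 1.67 from S100a4 and 1.51 from S100a6.

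The 7 melanocyte markers reached 1 FPKM in each line. Their summed FPKM was 14970 to 15007 in B16-F1, 7909 to 8125 in B16-F1R2 and 8924 to 8933 in B16-F1R2L, so it moved with the lines. Mlana, Pmel, Dct and Tyrp1 carry this sum. Tyr, the enzyme tyrosinase, had 192 and 186 FPKM (B16-F1), 14.7 and 14.2 FPKM (B16-F1R2) and 22.4 and 25.1 FPKM (B16-F1R2L), while Mitf had 92.3 and 88.7 FPKM, 79.5 and 83.6 FPKM and 112 and 127 FPKM in the same order. The markers were thus not alike, and their part in the S100 differences was not tested. The fibroblast markers Dcn, Lum and Thy1 and the leukocyte markers Ptprc, Itgam and Cd3e were listed at 0 in all libraries. So were the endothelial markers Cdh5, Kdr, Tek and Lyve1. Of the 6 markers of each type, 0 to 2 reached 1 FPKM in both libraries of a line. Some other markers of these lists had higher values in the metastatic lines, while Prox1 had lower ones and Cd68 and Pdgfra overlapped. Pecam1 was listed at 0 in B16-F1 and had 0.758 and 0.752 FPKM (B16-F1R2) and 1.09 and 1.26 FPKM (B16-F1R2L). Col1a2 had 0.635 and 0.742 FPKM (B16-F1), 1.13 and 1.04 FPKM (B16-F1R2) and 1.77 and 2.17 FPKM (B16-F1R2L). Lyz2 went from 0.17 and 0.625 FPKM (B16-F1) to 0.916 and 1.18 FPKM (B16-F1R2) and 2.05 and 1.504 FPKM (B16-F1R2L), and Csf1r from 0 in B16-F1 to at most 0.174 FPKM. The summed levels of the markers of these 3 cell types were highest in B16-F1R2L at no more than 4.35 FPKM, and those of keratinocytes and lung epithelium at no more than 0.34 in any library. Their part in the results was not tested. In a library of many cells, fewer cells with a transcript and less of it per cell cannot be told apart. The estimated depth was 13600000 to 15600000 reads per library. With 2 libraries a line, the smallest two-sided p that an exact permutation test of one gene could reach is 0.333, and the calls depend on limma's variance estimate, which borrows from all genes.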

How the data were processed

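Polyadenylated RNA of 3 lines (2 libraries each) was sequenced from one end (reads of 50 bases, stranded kit). The authors aligned reads with TopHat2 2.0.10 (Bowtie 1.0.0) to NCBI37/mm9, with up to 2 mismatches and 20 positions per read, and deposited FPKM values per gene. The submitters' processing notes name Cuffnorm. The gene annotation, and whether counting used strand, are not given in the sources used here. Lines and replicate numbers came from the labels.

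Genes reaching 1 FPKM in 2 or more libraries (11379 of 23951) were kept and taken to log2(FPKM + 0.1). The lines were then compared by limma 3.58.1 (R 4.3.3, eBayes with a mean-variance trend) using all 6 libraries, Benjamini-Hochberg adjustment over all tested genes and a threshold of 0.05. The authors used DESeq2 on counts. FPKM are not counts, so no count test was run. Depth is unknown from the table and was estimated from genes at the value of a single read, taking 200 bases off the transcript length. Positions came from NCBIM37 by symbol, for 21789 symbols (91.0%). Shared sequence was sought with BLAST 2.17.0. The limma comparison was tested on simulated data.

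The S100 genes and the lists were chosen with earlier results of these data known. Named were all S100 genes, at most 4 called genes a list by size of change, 5 best known partners, neighbours whose log2 fold change reached 1 in size and the 3 genes nearest in profile to the 2 S100 genes with the widest range. Alternatives were pseudocounts, filters, scalings, a gene length trend, eBayes without a trend, only the 4 libraries compared, a replicate block and leaving out each library. A minimum fold was applied to the counts of genes only.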

Additional observations from a re-analysis of the deposited data

Results flagged for a closer look

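The tested difference between B16-F1R2L and B16-F1R2, the 2 metastatic lines, passed the limma threshold for 3 S100 genes, where 12.1% of all tested genes were higher and 10.5% lower. It was -0.54 for S100a4, -0.28 for S100a6 and 0.72 for S100b (log2 fold change, adjusted p = 0.017, 0.024 and 0.004). Over 17 alternatives S100b passed in 16, S100a4 in 14 and S100a6 in 8, and with a library left out the number of S100 genes lower ranged from 0 to 2. S100a4 and S100a6 had fitted levels further above B16-F1 in B16-F1R2 than in B16-F1R2L, and S100b was below B16-F1 in the former and above it in the latter. Groups of 2 libraries are too small for a check of single outlying libraries.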

How the results depend on the processing

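S100a1, S100a4, S100a6, S100a11 and S100a16 kept their direction and passed in both comparisons with B16-F1 under all 17 alternatives. The minimum fold is not among the 17, and S100a11 did not reach it, at 0.41 and 0.47. Over all tested S100 genes and comparisons, 369 gene values stayed on the same side of the threshold, 30 lost it, 6 gained it and 3 changed sign. Those 3 were S100a13 in B16-F1R2L against B16-F1R2, which was not called: 0.038 rescaled to a sum of 1000000, 0.051 with the gene length trend removed and 0.030 without B16-F1R2L replicate 1 (-0.17 to 0.030 with a library left out). Of the counts, the number lower in B16-F1R2 against B16-F1 (3) became 1 without the filter and 1 with a minimum log2 fold change of 1. It was 4 with the length trend removed, where S100a10 was called as well. It was 2 rescaled, after quantile normalization, without the eBayes trend and with the replicate block. It also varied with a library left out. The numbers higher (5) and lower (3) in B16-F1R2L than in B16-F1 became 3 and 1 with the minimum fold. For B16-F1R2L against B16-F1R2, the number higher (1) became 0 without the filter, 2 rescaled, 3 with the length trend removed and 0 with the minimum fold. The number lower (2) became 0 without the filter, 1 rescaled, 1 after quantile normalization, 1 with the length trend removed, 0 with the minimum fold and 0 to 2 with a library left out. Without the filter 23951 genes entered both the adjustment and limma's variance estimate. The causes of these changes were not tested. Rescaling shifted the overall median from 0.022 to 0.13 in that comparison (1378 higher and 1190 lower calls became 2079 and 489) and from 0.017 to 0.12 in B16-F1R2L against B16-F1 (3361 and 3086 became 4075 and 2043). With the replicate number as a block, S100a13 in B16-F1R2 against B16-F1 had an adjusted p of 0.052, and no other call changed. The difference between replicates 1 and 2 within a line correlated between the lines at 0.052 (B16-F1 and B16-F1R2), -0.10 (B16-F1 and B16-F1R2L) and 0.079 (B16-F1R2 and B16-F1R2L) over genes, and the numbers were not treated as a pairing. Few reads limit S100a16 in B16-F1 and S100a3 in all libraries. Sequence shared with other places limits S100a11, and none of the alternatives addressed it.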
